A study of Homo sapiens with 22 samples.

Results

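Catecholamine synthesis and transport were followed through 9 genes, chosen by name and all found among the 35237 rows of a table of read counts per gene. They are the enzymes TH, GCH1, DDC, DBH and PNMT, the cytochrome CYB561, the vesicle carriers SLC18A1 and SLC18A2, and the plasma membrane carrier SLC6A2. The counts come from 22 RNA libraries of the neuroblastoma lines SK-N-AS and GIMEN, both established from human tumours, in a study of how differentiation with PP121 and bufalin changes their gene expression. PP121 is a small-molecule inhibitor of tyrosine kinases and of phosphoinositide kinases, and bufalin is a cardiac glycoside that inhibits the sodium pump. Untreated SK-N-AS cells were kept in DMEM with 10% fetal bovine serum (FBS, n = 4). S1D4 cells had 4 days of 5 µM PP121 in DMEM with 1% FBS (n = 4). S2D4 cells were S1D4 cells that then had 4 days of 5 µM PP121 with 100 nM bufalin in Neurobasal medium with B27 supplement (n = 4), and S2D30 cells had 30 days of that second stage (n = 4). Untreated GIMEN cells were kept in RPMI with 10% FBS (n = 3), and GIMEN D30 cells had 30 days of 2.5 µM PP121 with 10 nM bufalin in RPMI with 1% FBS (n = 3). From untreated to S1D4, from S1D4 to S2D4 and in GIMEN the compounds and the medium or serum changed together, so their effects cannot be told apart, and the doses differed between the lines. Each line is a single tumour line without a vehicle control, and the labels do not say whether replicates were separate cultures, so p-values measure only the spread between these libraries.

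Catecholamines are made from tyrosine in a chain of enzymes. Tyrosine hydroxylase (TH) makes L-DOPA with tetrahydrobiopterin as cofactor, DOPA decarboxylase (DDC) makes dopamine, dopamine beta-hydroxylase (DBH) makes noradrenaline inside vesicles, and PNMT methylates noradrenaline to adrenaline. The vesicular monoamine transporters load the amines into vesicles, and the noradrenaline transporter takes released noradrenaline back into the cell. Neuroblastoma arises from the sympathoadrenal lineage, in which this pathway is the defining product, and catecholamine metabolites serve in its diagnosis.

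RefSeq promoter windows on the build GRCh38.p14 matched 4 of the 9 genes (DDC, DBH, SLC18A2 and CYB561), with 8 windows in all, of which the 250 bases before the transcription start were read. The windows of DBH, which fell in the 3 treated SK-N-AS groups, and of SLC18A2 are printed because they hold the cAMP response element (TGACGTCA) or its part TGACG, through which catecholamine genes are known to be regulated. The DBH window is chr9:133636113-133636362 and the SLC18A2 window is chr10:117240864-117241113, both on the plus strand. Capitals mark the element or its part.
DBH: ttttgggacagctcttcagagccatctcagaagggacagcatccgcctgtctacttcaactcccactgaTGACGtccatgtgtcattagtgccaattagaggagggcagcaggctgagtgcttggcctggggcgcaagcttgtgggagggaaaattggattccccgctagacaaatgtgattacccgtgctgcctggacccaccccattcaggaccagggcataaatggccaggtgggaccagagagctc
SLC18A2: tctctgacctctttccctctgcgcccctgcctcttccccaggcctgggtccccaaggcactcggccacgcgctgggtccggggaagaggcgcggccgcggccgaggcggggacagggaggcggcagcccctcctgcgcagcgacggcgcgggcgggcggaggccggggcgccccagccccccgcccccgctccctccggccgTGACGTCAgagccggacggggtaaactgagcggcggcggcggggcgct
Counted back from the start at -1, TGACG lay at -181 to -177 in DBH and TGACGTCA at -48 to -41 in SLC18A2. Of 35116 RefSeq windows of that length, 1.65% held TGACGTCA and 21.2% held TGACG on either strand. The EGR motif GCGNGGGCG, in 8.41% of windows, occurred in SLC18A2 at -105 to -97 and at -69 to -61, and in 1 CYB561 window at -166 to -158. AP-1 (TGANTCA, 6.57% of windows) and the TATA box (TATAAA, 10.7%) matched no window of the 4 genes. These matches describe letters and not binding.

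Library totals were 16456484 to 37506800 counts. Values are given as CPM, which are counts scaled to library size with TMM factors within each line. The labels call both lines mesenchymal (MES), yet untreated SK-N-AS held PHOX2A, a transcription factor of the adrenergic state, at 110 to 185 CPM, and the mesenchymal marker fibronectin (FN1) at 52.6 to 91.0 CPM. Untreated GIMEN had no PHOX2A count, yet its sum over 5 adrenergic markers, PHOX2A among them, ran from 319 to 337 CPM. In SK-N-AS the sum of these 5 adrenergic markers ran from 1372 to 1522 CPM untreated, from 1142 to 1292 in S1D4, from 477 to 627 in S2D4 and from 149 to 194 in S2D30. The sum of 8 mesenchymal markers ran from 967 to 1551 CPM untreated, from 1352 to 1585 in S1D4, from 2486 to 4814 in S2D4 and from 3288 to 4011 in S2D30, against 34064 to 35613 in untreated GIMEN. In SK-N-AS most of that sum was vimentin (VIM, 2156 to 4282 CPM in S2D4), and the 8 markers did not move alike: 2 rose and 4 fell in S1D4, and 6 rose and 2 fell in S2D4 and in S2D30, with FN1 and TWIST1 falling in the 3 groups. The 6 leukocyte markers summed to 171 to 215 CPM untreated and 3.23 to 6.06 in S2D30, nearly all from PTPRC, with CD3E at 0 counts in the 16 SK-N-AS libraries. The 5 Schwann cell markers summed to at most 9.22 CPM in SK-N-AS, with SOX10 at most 0.269 CPM. The part of these shifts in the results was not tested, and in bulk RNA fewer cells of a type and less RNA per cell cannot be told apart.

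S2D4 replicate 4 stood apart from the other S2D4 libraries. Its counts differed from theirs by 109 to 122 times the sampling variance over genes, against 3.77 to 6.27 among the other 3, and its total was 34292076 counts against 18793711 to 21771432. Pairs of untreated SK-N-AS libraries differed by 26.1 to 113 times that variance, so a spread of this size was not limited to S2D4. Its log2 CPM correlated at 0.9628 to 0.9648 with the other S2D4 libraries and at 0.9306 to 0.9381 with S1D4. S1D4 replicates 1 and 2 also differed from replicates 3 and 4 by 24.1 to 27.4 times that variance, against 3.16 to 6.70 within each pair. S2D4 values whose call or size changed without replicate 4 are given both ways below.

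In SK-N-AS the pathway did not move as 1 block. Under PP121 in low serum (S1D4) TH, PNMT and SLC18A1 rose several-fold, CYB561 and GCH1 rose less, and DBH fell. In S2D30, after the second stage with bufalin, 6 of the 9 genes were below untreated and none above. Against untreated cells, 5 genes rose and 1 fell in S1D4, where 17.6% of the 15810 genes tested were called higher and 22.4% lower (edgeR, adjusted p under 0.05). In S2D4, 3 rose and 4 fell (30.9% and 32.2% of all genes), and without replicate 4 the counts were 3 and 6 (31.2% and 34.3%). In S2D30, 0 rose and 6 fell (33.8% of all genes were higher and 36.5% lower). The median log2 fold change of the 9 genes was 0.66 in S1D4, -0.96 in S2D4 (-2.19 without replicate 4) and -2.76 in S2D30, beside medians of all genes from -0.03 to -0.01. S2D30 without S2D4 replicate 4 had 0 and 7 (38.5% of all genes were lower). The 3 comparisons share the untreated libraries.

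**Figure D1:**
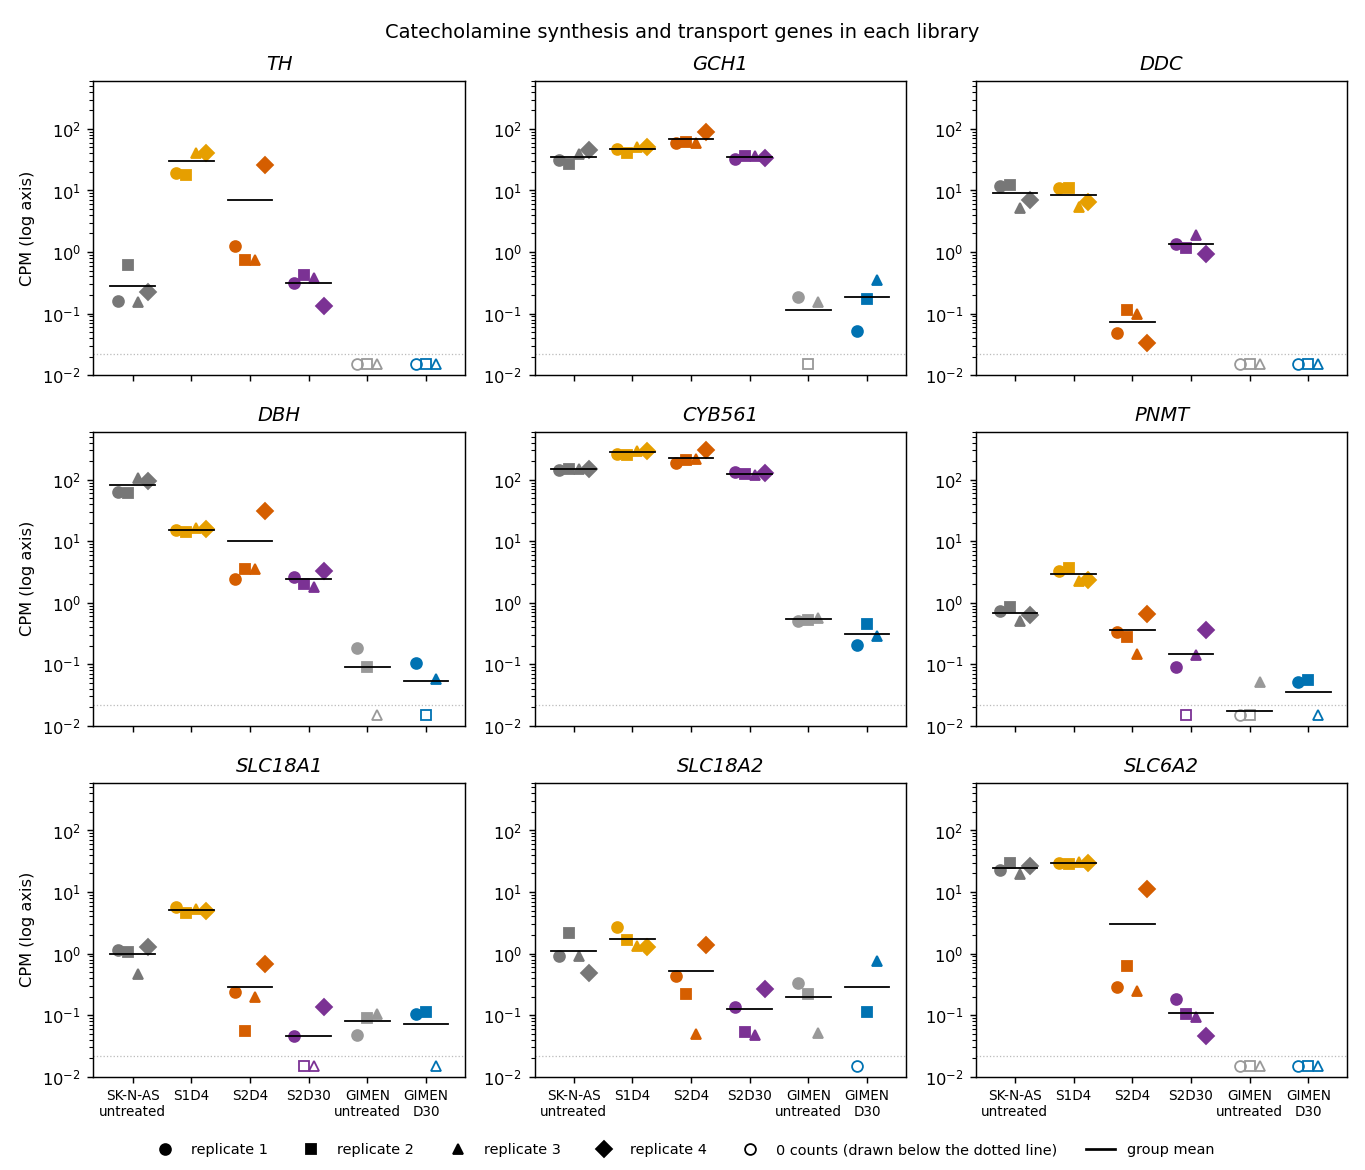
CPM of each of the 9 genes (log axis) in each of the 22 libraries by group, with marker shapes for the replicate number, lines at the group means and open symbols for 0 counts. TH in S1D4 lay between 17.9 and 41.2 CPM against at most 0.607 untreated, and the GIMEN libraries lay near or at 0 for the 9 genes.

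TH, the rate-limiting enzyme, had the largest fitted rise of the 9 genes in S1D4. Untreated SK-N-AS libraries 1 to 4 had 0.158, 0.607, 0.153 and 0.221 CPM, from 3 to 13 counts each. S1D4 libraries had 18.9, 17.9, 41.1 and 41.2 CPM (29.8 ± 13.1, SD, n = 4). The 2 groups did not overlap, and replicates 3 and 4 of S1D4 were 2.24 times as high as replicates 1 and 2. The log2 fold change of S1D4 over untreated was 6.77 (SE 1.12, adjusted p = 0.000168), and it lay between 6.54 and 7.33 over 16 alternative settings, all of which called it. S2D4 libraries had 1.25, 0.729, 0.732 and 25.8 CPM, so that replicate 4 was in the S1D4 range and the other 3 were nearer to untreated. With the 4 libraries TH in S2D4 was above untreated by a log2 fold change of 4.75 (SE 1.10, adjusted p = 0.00129), and without replicate 4 by 1.75 (SE 0.56, adjusted p = 0.0121). From S1D4 to S2D4 TH changed by -2.02 on the log2 scale (SE 0.81, adjusted p = 0.0433), and by -5.02 without replicate 4 (adjusted p = 2.95e-08). That call was lost (adjusted p from 0.0919 to 0.101) when S2D4 replicate 1, 2 or 3 or S1D4 replicate 3 or 4 was left out. It was also lost with DESeq2 (0.0647) and in a model of the 2 groups alone (0.125). S2D30 libraries had 0.317, 0.423, 0.374 and 0.135 CPM and overlapped the untreated range. The S2D30 level was not distinguishable from untreated (log2 fold change 0.20, SE 1.53, adjusted p = 0.915), and it was below S1D4 (-6.57, SE 1.13, adjusted p = 7.46e-05). With S2D4 replicate 4 left out of the shared model, the difference from untreated was 0.20 (SE 0.64, adjusted p = 0.787).

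GCH1, GTP cyclohydrolase 1, makes the first committed step towards tetrahydrobiopterin, the cofactor TH needs. Untreated libraries had 31.0, 27.4, 39.3 and 44.6 CPM, and S1D4 libraries had 46.7, 41.2, 51.3 and 51.7. The ranges of untreated and S1D4 overlapped. S2D4 libraries had 59.9, 61.7, 59.9 and 89.2 CPM, all above the highest S1D4 library, and S2D30 libraries returned to 32.5 to 36.0 CPM. GCH1 rose by 0.42 in S1D4 (SE 0.15, adjusted p = 0.0345), but the call was lost without S1D4 replicate 1 (0.0552), 3 (0.0867) or 4 (0.0903) or untreated replicate 1 (0.0860) or 2 (0.116). With S2D4 replicate 4 left out of the shared model, the rise of 0.42 was called at an adjusted p of 0.00864. In S2D4 it rose by 0.93 over untreated (SE 0.15, adjusted p = 5.3e-05), and by 0.76 without replicate 4. S2D30 did not differ from untreated by the test (log2 fold change -0.05, SE 0.15, adjusted p = 0.787). GCH1 was highest in S2D4, where TH without replicate 4 was already far below its S1D4 level.

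DDC, which turns L-DOPA into dopamine, kept its level through the first stage and nearly vanished in the second. Untreated libraries had 12, 12.4, 5.19 and 6.93 CPM and S1D4 libraries had 10.9, 10.8, 5.49 and 6.55 CPM. In both groups replicates 3 and 4 were lower than replicates 1 and 2 (ratios 0.497 and 0.553), and the groups overlapped (log2 fold change -0.11, adjusted p = 0.794). In S2D4 the 4 libraries held 1, 2, 2 and 1 counts, and here replicate 4 was no exception. With 3 counts per library taken as the detection floor, DDC in S2D4 was at least 65.3-fold lower than untreated and at least 60.4-fold lower than S1D4. In S2D30 it was detected again, at 1.36, 1.16, 1.91 and 0.943 CPM, from 21 to 41 counts. That was at least 9.62-fold above S2D4 (adjusted p = 7.44e-06) and below untreated (-2.76 on the log2 scale, SE 0.33, adjusted p = 1.23e-06). DDC was the single member that rose from S2D4 to S2D30.

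DBH, the vesicular enzyme that makes noradrenaline, fell at the first step already. Untreated libraries had 62.5, 61.1, 106 and 94.7 CPM, and S1D4 libraries had 15, 13.9, 16.6 and 15.7 CPM, with no overlap. The fall in S1D4 was -2.40 on the log2 scale (SE 0.57, adjusted p = 0.00303), while TH, the first enzyme of the same chain, rose in those libraries. S2D4 libraries had 2.46, 3.53, 3.56 and 30.9 CPM, and replicate 4 exceeded every S1D4 library. Against untreated the S2D4 change was -2.96 (SE 0.58, adjusted p = 0.000316) and -4.67 without replicate 4 (SE 0.24, adjusted p = 6.28e-11). The step from S1D4 to S2D4 was not called with the 4 libraries (-0.56, adjusted p = 0.417) and was called without replicate 4 (-2.27, adjusted p = 3.97e-07). S2D30 libraries had 2.58, 2.01, 1.82 and 3.32 CPM, a change from untreated of -5.05 (SE 0.67, adjusted p = 3.83e-06). From S2D4 to S2D30 the change was -2.09 (adjusted p = 0.0112), and -0.38 (adjusted p = 0.241) without replicate 4. In a model of the 2 groups alone that step was not called (adjusted p = 0.0559).

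CYB561 is the cytochrome of the vesicle membrane that passes electrons inward to regenerate ascorbate, the electron donor of DBH. It was the most abundant member per kilobase of exon in each SK-N-AS group, at 27.9, 52.0, 42.9 and 23.6 mean CPM per kilobase in untreated, S1D4, S2D4 and S2D30 cells, with exon lengths from GENCODE 29. Untreated libraries lay between 144 and 152 CPM and S1D4 libraries between 252 and 295, a rise of 0.90 (SE 0.11, adjusted p = 1.43e-05). S2D4 libraries had 190, 205, 215 and 302 CPM, above untreated by 0.62 (SE 0.11, adjusted p = 0.000168) and by 0.45 without replicate 4, and S2D30 libraries had 131, 125, 119 and 127 CPM. The S2D30 libraries lay below each untreated library, but the difference of -0.24 (SE 0.11) missed the threshold (adjusted p = 0.0689). It passed when S2D4 replicate 4 was left out of the shared model (0.00324), with upper-quartile factors (0.0321) and in a model of the 2 groups alone (0.0154). CYB561 and DBH, which work in the same vesicle, changed in opposite directions in S1D4 and in S2D4.

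PNMT, the adrenaline-making enzyme, was low throughout. Untreated libraries had 0.738, 0.840, 0.509 and 0.633 CPM, and S1D4 libraries had 3.34, 3.63, 2.24 and 2.35 CPM, from 51 to 80 counts, with no overlap. The rise in S1D4 was 2.07 (SE 0.44, adjusted p = 0.00124). S2D4 libraries had 0.337, 0.280, 0.146 and 0.667 CPM, a change from untreated of -0.86 that was not called (adjusted p = 0.134) and of -1.41 without replicate 4 (adjusted p = 0.0254). S2D30 libraries had 2, 0, 3 and 8 counts, a change of -2.13 (SE 0.56, adjusted p = 0.00274) and of -3.02 (adjusted p = 0.000468) without S2D30 replicate 4. With so few counts the size of these falls is loosely fixed.

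The vesicular monoamine transporters are SLC18A1, the form of chromaffin cells, and SLC18A2, the form of most aminergic neurons. SLC18A1 had 1.13, 1.07, 0.458 and 1.27 CPM in untreated libraries and 5.72, 4.61, 5.31 and 4.94 CPM in S1D4, a rise of 2.36 (SE 0.43, adjusted p = 0.000403). In S2D4 it had 0.241, 0.0561, 0.195 and 0.667 CPM. The change from untreated was -1.65 (SE 0.50, adjusted p = 0.00899), and -2.54 without replicate 4 (adjusted p = 0.000390). In S2D30 the libraries held 1, 0, 0 and 3 counts, which is at the floor and at least 6.90-fold below untreated. SLC18A1 and PNMT had the same order of group means, with S1D4 highest, then untreated, S2D4 and S2D30. SLC18A2 and SLC6A2 shared that order, although their step from untreated to S1D4 was not called. Without replicate 4 neither SLC18A1 nor PNMT differed between S2D4 and S2D30 by the test.

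SLC18A2 changed less clearly. Untreated libraries had 0.922, 2.15, 0.917 and 0.474 CPM and S1D4 libraries had 2.67, 1.67, 1.32 and 1.29 CPM, overlapping ranges with no call (log2 fold change 0.66, adjusted p = 0.407). S2D4 libraries had 0.434, 0.224, 0.0488 and 1.40 CPM, and the change from untreated was -0.96 (adjusted p = 0.200), or -2.19 without replicate 4 (adjusted p = 0.00658). S2D30 libraries held 3, 1, 1 and 6 counts, a change of -3.04 (SE 0.78, adjusted p = 0.00240) and of -3.69 without S2D30 replicate 4 (adjusted p = 0.00271). Of the exon bases of SLC18A2 in GENCODE 29, 56.1% are overlapped by genes on the opposite strand, PDZD8 among them. PDZD8 lay between 32.7 and 55.6 CPM in SK-N-AS, and whether the counting used strand is not given in the sources used here, so reads of the 2 strands cannot be told apart.

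SLC6A2, the noradrenaline transporter, held its level in S1D4 and was close to 0 by S2D30. Untreated libraries had 22.6, 30.1, 19.8 and 26.3 CPM and S1D4 libraries had 29.3, 28, 31.0 and 30.0 CPM, with no call (log2 fold change 0.26, SE 0.64, adjusted p = 0.784). With S2D4 replicate 4 left out of the shared model, the SE was 0.14 and there was still no call (adjusted p = 0.129). S2D4 libraries had 0.289, 0.617, 0.244 and 11.1 CPM, or 6, 11, 5 and 333 counts. The change from untreated was -2.91 (SE 0.71, adjusted p = 0.00192) and -6.03 without replicate 4 (SE 0.24, adjusted p = 2.71e-12). S2D30 libraries held 4, 2, 2 and 1 counts, a change of -7.79 (SE 1.10, adjusted p = 8.07e-06). In GENCODE 29, 16.2% of the 75-base words of SLC6A2 also occur in AC136621.1, so a share of its reads may have been counted elsewhere or not at all.

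**Figure D2:**
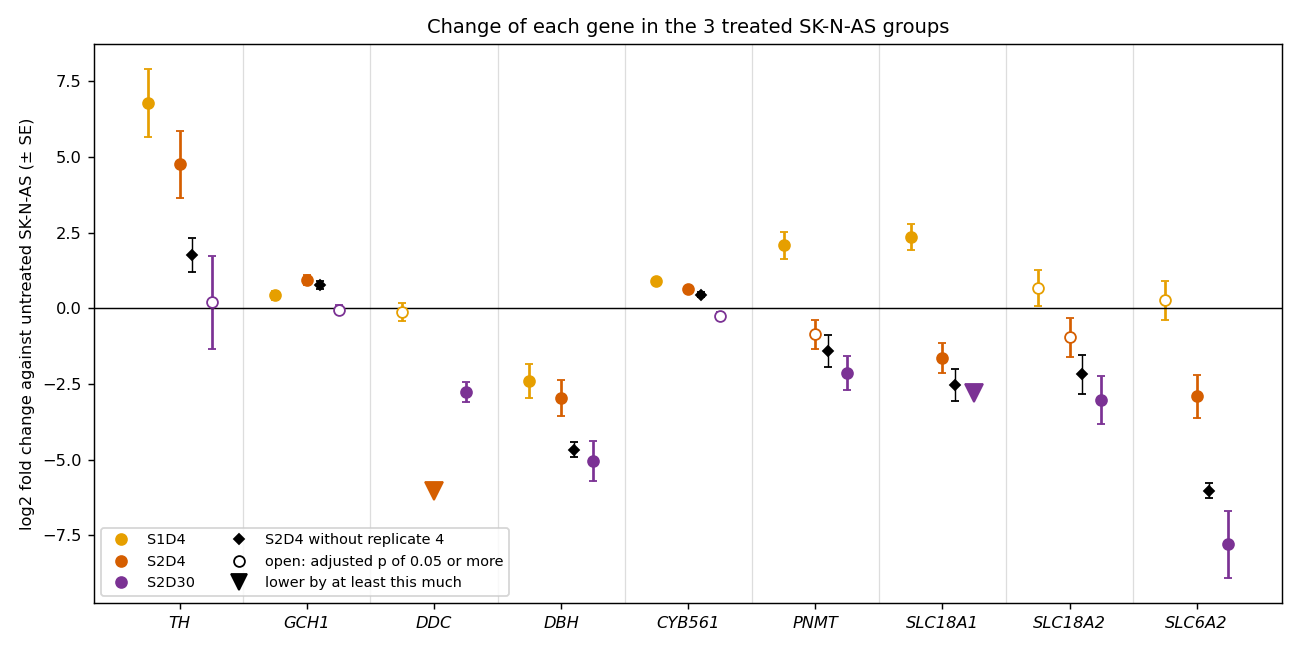
Fitted log2 fold change (± SE) of each gene in S1D4, S2D4 and S2D30 against untreated SK-N-AS, with diamonds for S2D4 without replicate 4, open symbols for an adjusted p of 0.05 or more, and triangles for lower bounds of a fall where a group was at the floor. TH stands at 6.77 in S1D4 and 0.20 in S2D30, while SLC6A2 runs from 0.26 to -7.79.

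Most of the pathway was lower in S2D4 than in S1D4, a step that brought bufalin and a new medium at once. Of the 9 genes, 1 rose (GCH1, 0.51, adjusted p = 0.00945, and 0.34 with 0.0333 without replicate 4) and 7 fell, where 28.3% of all genes were called higher and 26.8% lower. The falls were -2.93 for PNMT, -4.01 for SLC18A1, -3.17 for SLC6A2, -2.02 for TH, -1.62 for SLC18A2 and -0.28 for CYB561, beside the bound for DDC. Without replicate 4, 8 of the 9 fell (29.3% of all genes were lower), among them SLC6A2 (-6.29), SLC18A1 (-4.89), PNMT (-3.48), SLC18A2 (-2.85) and CYB561 (-0.45). With the 4 libraries the calls of CYB561 (adjusted p = 0.0468) and SLC18A2 (0.0385) were each lost when single libraries were left out. CYB561 lost it without S2D4 replicate 1, 2 or 3 or S1D4 replicate 1, 3 or 4 (0.0591 to 0.161), and SLC18A2 without S2D4 replicate 1, 2 or 3 or S1D4 replicate 1 or 2 (0.0589 to 0.114). Both calls were also lost in a model of the 2 groups alone (0.112 for CYB561 and 0.0670 for SLC18A2).

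From S2D4 to S2D30 the same medium and doses continued, and 1 gene rose (DDC) while 7 fell (24.4% of all genes were higher and 26.9% lower). The log2 fold changes were -4.55 for TH, -4.88 for SLC6A2, -2.09 for DBH, -2.08 for SLC18A2, -0.98 for GCH1 and -0.86 for CYB561, and SLC18A1 was at least 2.04-fold lower (adjusted p = 0.0110). Without S2D4 replicate 4, 4 genes fell (27.2% of all genes were lower): TH (-1.55), GCH1 (-0.82), SLC6A2 (-1.76) and CYB561 (-0.70). DBH (-0.38), SLC18A2 (-0.85), SLC18A1 and PNMT (-0.72) were then not called. With replicate 4 kept, PNMT (-1.27, adjusted p = 0.0871) was called without S2D30 replicate 4 (0.0134) or S2D4 replicate 3 (0.0453), and SLC18A2 (adjusted p = 0.0433) was no longer called without S2D30 replicate 1 (0.0802), 2 (0.102) or 3 (0.108) or S2D4 replicate 1 (0.0507).

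S2D4 replicate 4 was above the mean of the other S2D4 libraries in 8 of the 9 genes, as were 49.6% of the genes tested. TH was 28.5 times the mean of the other 3 S2D4 libraries, SLC6A2 29 times, DBH 9.69 times, SLC18A2 5.94 times and SLC18A1 4.07 times. Thus 5 of the 9 genes were at least 4-fold higher, against 1.58% of the genes tested, a count chosen after these values were seen and given with no test. PNMT was 2.62 times, CYB561 1.49 times and GCH1 1.47 times as high. DDC was at 0.388 times, which is 1 count. Relative to the S1D4 mean replicate 4 held 0.866 of TH, 0.807 of SLC18A2, 0.375 of SLC6A2, 0.231 of PNMT, 0.130 of SLC18A1 and 0.00395 of DDC, and 2.01 times DBH. It was therefore not at the S1D4 level throughout: its DDC was that of S2D4 and its GCH1, at 89.2 CPM, the highest of the 22 libraries. Among genes around the pathway, dihydropteridine reductase (QDPR) was 2.20 times and the transcription factors GATA3 and TFAP2B 2.72 and 2.31 times the mean of the other 3. Others were at least 2-fold lower: TFAP2A at 0.261 times, ADRA1D at 0.298, TPH1 at 0.346, PCBD1 at 0.466 and ADRA1A at 0.479. All of these but PCBD1 had at most 0.467 CPM in replicate 4. Median ratios over the lists of such genes described below ran from 0.534 (receptors) to 1.21 (transcription factors). Of the 8 mesenchymal markers 4 were at least 2-fold lower in replicate 4 and 0 at least 2-fold higher, from NOTCH2 at 0.117 times the mean to TWIST1 at 1.27 times, with a median of 0.496. The part of these genes in the members' values was not tested.

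**Figure D3:**
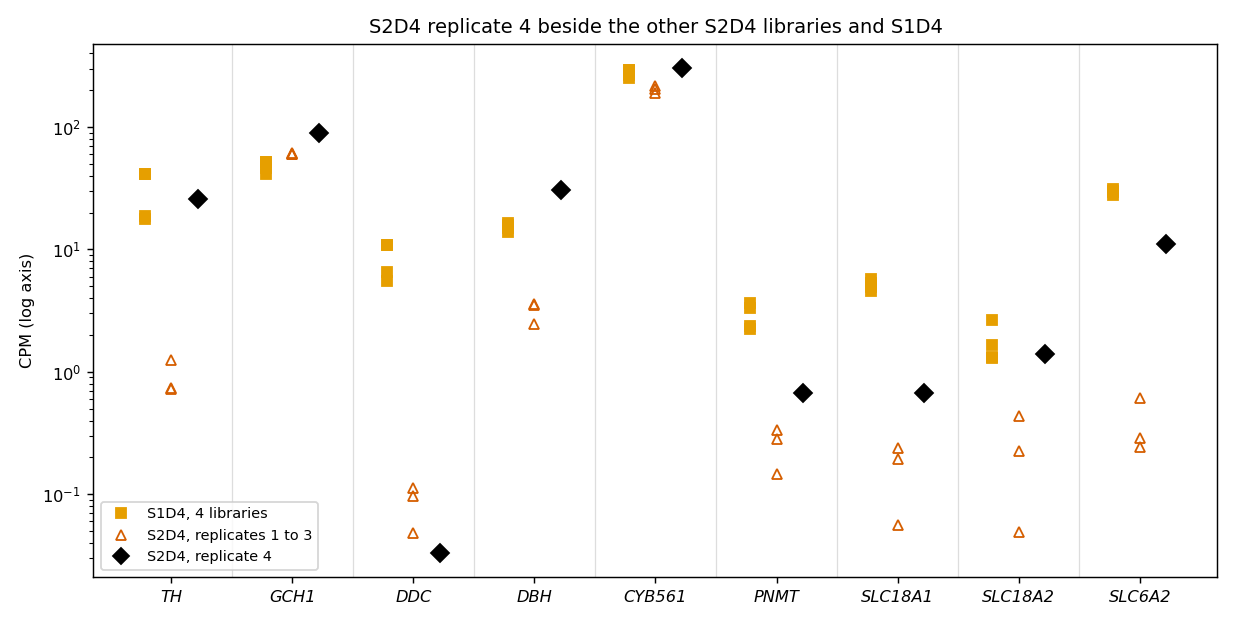
CPM (log axis) of the 9 genes in the 4 S1D4 libraries (squares), S2D4 replicates 1 to 3 (open triangles) and S2D4 replicate 4 (diamonds). Replicate 4 sits among the S1D4 libraries for TH at 25.8 CPM, above them for DBH at 30.9 CPM, and with the other S2D4 libraries for DDC.

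GIMEN offered almost no signal for the pathway. TH, DDC and SLC6A2 had 0 counts in all 6 libraries, which allows up to 0.143 CPM per untreated library and 0.166 per D30 library at 3 counts, for counting error only. The highest count of any member in a GIMEN library was 13, of SLC18A2 in D30 replicate 3. CYB561 had 11, 12 and 11 counts untreated and 4, 8 and 5 counts in D30. No member passed the filter on low counts, so 0 were tested, and without the filter 6 could be fitted in edgeR and 5 in DESeq2, of which 0 were called.

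Untreated SK-N-AS was called above untreated GIMEN for 8 of the 9 genes, where 39.2% of the genes tested were higher in SK-N-AS. TH did not pass the filter in that comparison, and the other 8 passed through their SK-N-AS counts, so the count is given as a description. The fitted log2 difference was 7.89 for CYB561, 9.46 for DBH and 8.06 for GCH1, the last 2 against 0 to 4 counts in each untreated GIMEN library. Without GIMEN untreated replicate 1 it was 10.39 for DBH and 8.65 for GCH1, and without replicate 2 it was 7.44 for GCH1. SLC18A2 had 7, 5 and 1 counts in untreated GIMEN and 15 to 46 in untreated SK-N-AS. Its fitted difference was 2.18 (adjusted p = 0.0137), and it was not called without GIMEN untreated replicate 3 (1.76, adjusted p = 0.0508). DDC and SLC6A2 stood against 0 counts. The interaction test of the 30-day change called 2 of the 8 genes that could be fitted, SLC18A1 (-4.16, adjusted p = 0.0200) and SLC18A2 (-3.49, adjusted p = 0.0317), as more negative in SK-N-AS (25.2% of all genes were). Both passed the filter through their untreated SK-N-AS counts, so the calls are given as a description. SLC18A1 had at most 2 counts in each GIMEN library and at most 3 in each S2D30 library, so its fitted difference is no measured size. The SLC18A2 difference was -1.22 (adjusted p = 0.628) without GIMEN D30 replicate 3, and SLC18A1 was no longer called without GIMEN D30 replicate 1 (0.0953) or 2 (0.101). DBH (-4.33, adjusted p = 0.0699), with at most 4 counts in a GIMEN library, was not called. It was called with DESeq2 (0.000279), without the filter (0.0288) and with the replicate block (0.0373). SLC6A2 (-7.81), against 0 GIMEN counts, was not called in edgeR and was called with DESeq2 (1.98e-05).

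The wider pathway was read from 7 lists of genes, of which up to 3 of the largest changes each are named. In SK-N-AS the shares of all genes called higher and lower were 17.6% and 22.4% in S1D4. They were 30.9% and 32.2% in S2D4 and 33.8% and 36.5% in S2D30. Without S2D4 replicate 4 they were 21.8% and 26%, 31.2% and 34.3%, and 35.5% and 38.5%, in the same order. The lists are short, and counts near these shares are not particular to a list. Tetrahydrobiopterin supply and the hydroxylase chaperone made a list of 7. In S1D4 2 rose and 0 fell, in S2D4 2 rose and 4 fell, and in S2D30 2 rose and 3 fell, with medians of -0.02, -0.67 and -0.43. DNAJC12, the chaperone of the aromatic amino acid hydroxylases, went from 20.1 to 29.9 CPM untreated to 1.93 to 3.70 in S2D30 (-3.08, adjusted p = 1.16e-10). SPR, sepiapterin reductase, fell by 1.14 in S2D4, while GCH1, an earlier enzyme of the same route, rose there. GCHFR, the feedback regulator of GCH1, fell by 1.76 in S2D30 of SK-N-AS and rose by 1.95 in GIMEN D30 (adjusted p = 0.00237), at 0.748 to 1.47 CPM.

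Aromatic amino acid carriers and hydroxylases related to TH made a list of 5. Of these 4 were tested, of which 2 rose in S1D4, 2 in S2D4 and 3 in S2D30, with 0 falling and medians of 0.39, 1.55 and 1.59. Without S2D4 replicate 4 all 5 were tested, with 3 rising and 1 falling in S2D4 and in S2D30 and medians of 1.09 and 1.27. SLC7A5 and SLC3A2 form the large neutral amino acid transporter that brings in tyrosine and L-DOPA. SLC3A2 went from 51.7 to 72.5 CPM untreated to 791 to 994 in S2D30 (3.78, adjusted p = 3.08e-12), and SLC7A5 rose by 2.30 in S2D4. TPH2, a relative of TH that hydroxylates tryptophan, rose by 1.28 in S2D30, at 2.17 to 3.05 CPM. In GIMEN D30, SLC3A2 rose by 0.82 and SLC7A5 fell by 1.33 on the log2 scale.

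Copper and ascorbate supply, with relatives of DBH and CYB561, made a list of 9. It was mixed, with 2 rising and 3 falling in S1D4, 3 and 3 in S2D4 (3 and 1 without replicate 4) and 4 and 4 in S2D30, and medians of -0.08, -0.28 and 0.09. CYB561D1, a relative of CYB561, rose by 1.38, 1.19 and 1.46 in S1D4, S2D4 and S2D30, whereas CYB561 itself was not called in S2D30. MOXD1, a relative of DBH, fell by 2.95 in GIMEN D30, from at least 70.6 CPM to at most 11.5. SLC23A2, a sodium-dependent ascorbate carrier, rose by 1.21 in GIMEN D30.

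Of 8 other monoamine carriers and relatives of the member carriers, 4 were tested in SK-N-AS. In each of S1D4, S2D4 and S2D30, 3 fell, and in S2D30 1 rose. The medians were -1.57, -3.35 and -4.56. Without S2D4 replicate 4, 6 genes passed the filter and the medians over them were -1.34, -1.83 and -2.32, with the same count of 3 falling in each group and 2 rising in S2D30. SLC18A3, the vesicular acetylcholine transporter and relative of SLC18A1, fell in the 3 groups (-1.26, -3.96 and -7.02), from at least 17.7 CPM untreated to at most 0.269 in S2D30. SLC6A3, the dopamine transporter, fell as well (-1.87, -2.74 and -4.63).

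The breakdown enzymes fell with the second stage. Of 7 genes 6 were tested. In S1D4 3 fell and 0 rose, in S2D4 6 fell, and in S2D30 4 fell and 1 rose. Medians were -0.39, -1.90 with MAOB at its bound, and -1.24. MAOA, monoamine oxidase A, lay at 38.5 to 56.9 CPM untreated and 4.88 to 6.06 in S2D4 (-3.06, adjusted p = 2.48e-11). ALDH2, which oxidises the aldehyde that MAOA leaves, fell by 2.55 in S2D4. AKR1B1, an aldo-keto reductase, fell by 1.80 in S2D4 and was back at 96.4 to 152 CPM in S2D30 (log2 fold change 0.01).

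Of 14 adrenergic and dopamine receptors 5 were tested in SK-N-AS, with 1 rising and 1 falling in S1D4, 2 rising in S2D4, and 1 rising and 2 falling in S2D30, and medians of 0.33, 0.48 and -0.05. ADRA2C, an alpha-2 adrenergic receptor that restrains noradrenaline release, went from 4.01 to 5.25 CPM untreated to 75.9 to 84.6 in S2D30 (4.05, adjusted p = 7.69e-12). DRD2, a dopamine receptor, fell by 1.62 in S2D30, and ADRA1B, an alpha-1 adrenergic receptor, fell by 1.27 in GIMEN D30.

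The last list held 15 transcription factors chosen from those known to act on the 9 genes, all tested in SK-N-AS. In S1D4 3 rose and 3 fell, in S2D4 7 rose and 6 fell, and in S2D30 7 rose and 7 fell, with medians of -0.07, -0.09 and 0.19. NR4A2, an orphan nuclear receptor known to act on TH in dopamine neurons, rose by 1.26 in S1D4 (adjusted p = 5.19e-05). It rose by 3.93 in S2D4 (adjusted p = 2.70e-11), and TH was above untreated in both groups. In S2D30 NR4A2 went from 1.29 to 2.70 CPM untreated to 178 to 217 (6.52, adjusted p = 8.53e-14), with TH not distinguishable from untreated. TFAP2A was at the floor untreated and at least 58.0-fold higher in S2D30, at 5.45 to 7.66 CPM. In GIMEN D30, NR4A2 rose by 3.61, from 17.9 to 21.2 CPM to 221 to 263, with TH at 0 counts. Any link between NR4A2 and TH in these cells was not tested. In GIMEN D30 35.5% of the 13517 genes tested were called higher and 36.0% lower. Over the 7 lists, in the order given, it had 4 rising and 0 falling of 6 tested, 1 and 1 of 3, 3 and 2 of 9, 1 and 0 of 2, 2 and 3 of 5, 1 and 1 of 3, and 7 and 2 of 11.

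Without S2D4 replicate 4, the other lists had the following counts in S2D4. The tetrahydrobiopterin list had 2 rising and 5 falling, the breakdown enzymes 0 and 6, the receptors 3 and 0 of 7 tested, and the transcription factors 7 and 7.

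**Figure D4:**
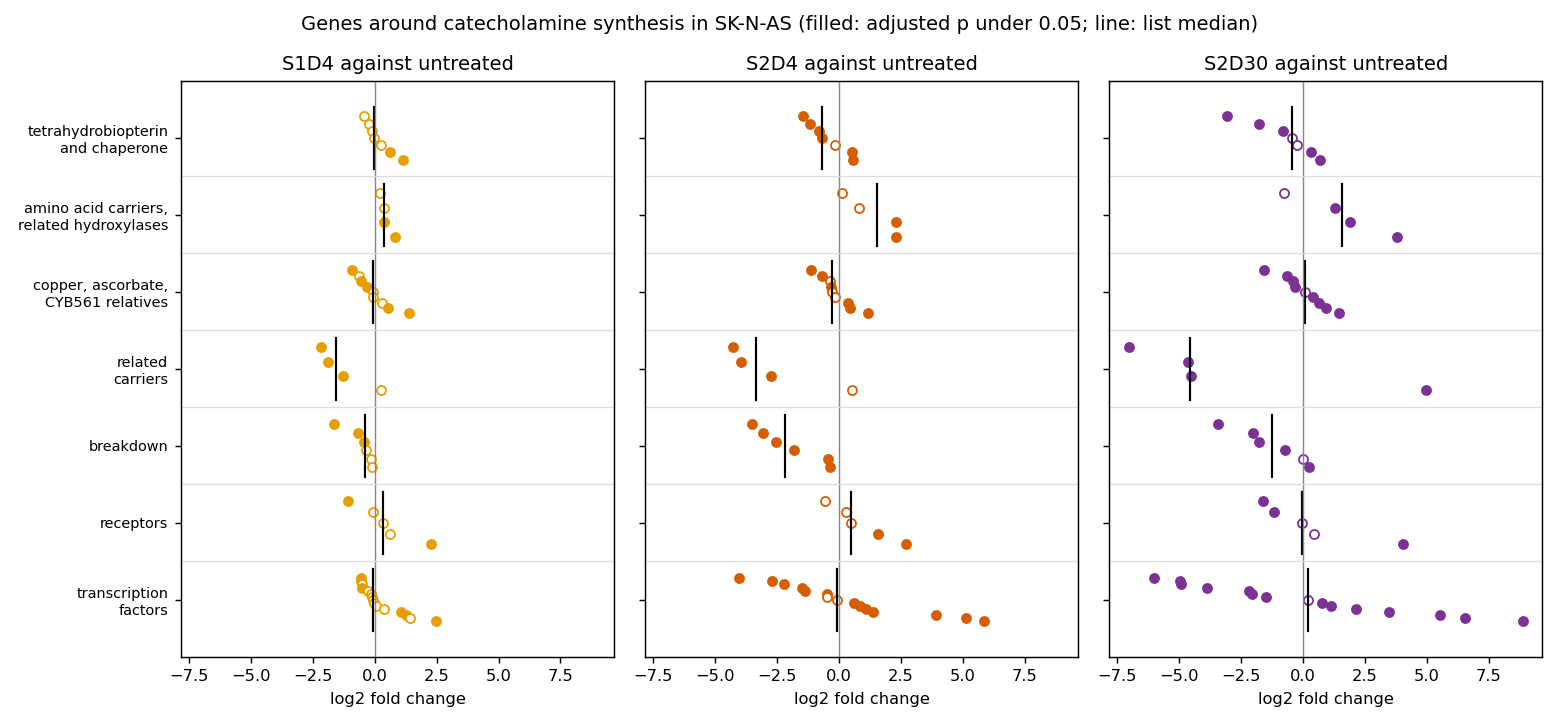
Fitted log2 fold change against untreated SK-N-AS of the tested genes of 7 lists in S1D4, S2D4 and S2D30 (1 point a gene, filled where the adjusted p was under 0.05, line at the list median). Values of genes with a group at the floor, such as TFAP2A, depend on the prior count. The related carriers lie mostly below 0, and the transcription factors spread to both sides of 0 in S2D30, with NR4A2 at 6.52.

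The genes most like each member were ranked by Pearson correlation of log2 CPM (prior count 2) among 14736 genes over the 16 SK-N-AS libraries. The libraries fall into 4 groups and share S2D4 replicate 4, so the values describe these libraries only. For TH they were PLCD3 (0.975), DAGLA (0.957) and EFR3B (0.956). PLCD3 had 97.4, 96.0, 114 and 116 CPM in S1D4 and 49.7, 50.7, 48.4 and 112 CPM in S2D4, so that it too was high in replicate 4. For DBH they were GAREM2 (0.994), TONSL (0.984) and REC8 (0.984), and for SLC6A2 ADGRB2, MYRFL and SEMA4G (all 0.989). ADGRB2 had 33.6, 32.4, 35.0 and 97.9 CPM in S2D4. For DDC they were TMEM203 (0.975), KRCC1 (0.974) and NDRG4 (0.973), for GCH1 YWHAG (0.981), HIC1 (0.967) and SPRY4 (0.952), and for CYB561 ARID3B (0.974), PCNX2 (0.971) and PRSS56 (0.970). For SLC18A1 they were NOVA2 (0.976), MAPK8IP2 (0.972) and LINC00176 (0.967), and for SLC18A2 ZNF467 (0.933), ZNF580 (0.925) and C8orf58 (0.922). PNMT was the single member whose closest gene was another member, SLC18A1 (0.957), followed by RASL10A (0.954) and LRRC46 (0.933), and with a prior count of 0.5 SLC18A1 ranked below RASL10A and METTL21A.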

How the data were processed

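Total RNA of 22 libraries was sequenced as read pairs on an Illumina HiSeq X, per the labels. The authors deposited raw counts per gene symbol, which were whole numbers. The aligner, the counter, the genome build, the annotation and the use of strand are not given in the sources used here. The tests used edgeR 4.0.16 (R 4.3.3): filterByExpr (minimum count 10, minimum total 15), TMM scaling, the quasi-likelihood F-test and Benjamini-Hochberg adjustment over all genes, called under 0.05. One model held the 16 SK-N-AS libraries (15810 genes), one the 6 GIMEN libraries (13517), one the 14 untreated and 30-day libraries (16246) and one the 7 untreated libraries (15101). The models were tested on simulated data. The standard error is the log2 fold change over the root of F. A group with at most 3 counts in each library was at the floor, and bounds use 3 counts per library. Depth, 16456484 to 37506800 counts, limits genes with few counts, and limits cover counting error only. The 9 genes, the lists and the tests were chosen with earlier results of these data known, and the lists without S2D4 replicate 4 were added after seeing the data. All members are named, with up to 3 genes per list (largest change, adjusted p under 0.05, mean of at least 1 CPM in a group) and 3 most alike per member. Some genes that this rule picks are not reported here. Alternatives were DESeq2 1.42.0, its size factors, upper-quartile factors, dropping the filter, filtering on a mean count of 10, a replicate block, the 2 groups alone, a term for replicates 3 and 4, and leaving out each library. Promoter sequences are RefSeq's (GRCh38.p14), and exon overlaps come from GENCODE 29.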

Additional observations from a re-analysis of the deposited data

Results flagged for a closer look

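In 36 sets of 4 SK-N-AS libraries, a library far from the other 3 was looked for, which chance finds in about 1 of 20. S2D4 replicate 4 was such a library for TH (25.8 CPM, others 0.729 to 1.25), DBH (30.9, others 2.46 to 3.56), GCH1 (89.2, others 59.9 to 61.7) and SLC6A2 (11.1, others 0.244 to 0.617). Untreated replicate 2 was one for TH (0.607 CPM, others 0.153 to 0.221), from 13 counts. The interaction test called the 30-day change different between the lines for SLC18A1 (-4.16 on the log2 scale, SK-N-AS minus GIMEN) and SLC18A2 (-3.49). Both passed the filter through untreated SK-N-AS, and SLC18A1 had at most 2 counts in each GIMEN library and at most 3 in S2D30, so these are fitted values and no measured sizes. SLC18A2 was at -1.22 without GIMEN D30 replicate 3, which held 13 counts.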

How the results depend on the processing

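Of 928 values of the 9 genes under alternatives, 871 kept their call status, 45 lost the call, 12 gained it and 0 changed direction after a call. The 871 include uncalled values near 0 that changed sign, such as DDC in S1D4 against untreated, which ran from -0.30 to 0.07. In a model of the 2 groups alone, 5 genes were called from S1D4 to S2D4 and 4 from S2D4 to S2D30, against 8 each. Leaving out 1 library moved these counts to 5 to 9 each. Apart from leaving out S2D4 replicate 4, the share of all genes called under each alternative is not given here. Moves in the counts under the alternatives therefore cannot be read as particular to the 9 genes. The 2 genes whose 30-day change differed between the lines became 4 with DESeq2, 1 with a mean of at least 10 counts, and 1 to 3 without 1 library. Same-numbered libraries correlated at -0.106 to 0.311 in their deviations from the group means. Untreated and S1D4 libraries with the same number were at 0.305, 0.276, 0.033 and 0.311, so that 1 of these 4 pairs was under 0.1, and the numbers were not taken as pairs. With the replicate block, 3 of 53 values had another call: SLC18A2 from S2D4 to S2D30 (adjusted p = 0.0668), and in the comparison of lines DBH (0.0373) and SLC18A2 (0.0947). The counts of called genes with the block were 6, 7 and 6 for S1D4, S2D4 and S2D30 against untreated, 8 from S1D4 to S2D4, 7 from S2D4 to S2D30, 0 in GIMEN and 2 between the lines. The block also moved TH to 3.89 in S2D4 against untreated, to -3.05 from S1D4 to S2D4 and to -3.65 from S2D4 to S2D30, and SLC6A2 to -3.63 in S2D4 against untreated and to -3.93 from S1D4 to S2D4. DESeq2 gave SLC6A2 no adjusted p in the 5 SK-N-AS comparisons. At this depth, changes of PNMT, SLC18A1 and SLC18A2 in the second stage rest on 0 to 42 counts per library.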
